A study of Homo sapiens with 6 samples.

Results

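Peaks of SON and HMGB2 in gene deserts are described here, list by list. A desert peak is a peak on chromosomes 1 to 22 or X that lies more than 100 kb from the span of every protein-coding gene in RefSeq's GRCh38.p14 table, which holds 19974 such genes on these chromosomes. The rule uses position only. It took 1926 of 22216 SON peaks in untreated cells, 758 of 11028 SON peaks after 3 days of ICM, 490 of 5481 SON peaks after 6 days of ICM and 205 of 5992 HMGB2 peaks in untreated cells, 3379 of 44717 in all. Peaks of different lists overlap, and these members fall into 2161 distinct regions.

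The study mapped the nuclear speckle protein SON and the chromatin protein HMGB2 by ChIPmentation, a chromatin immunoprecipitation in which the sequencing library is made by a transposase on the precipitated chromatin. All cells were IMR90, human embryonic lung fibroblasts with no stated genetic change. The SON groups were untreated cells and cells given ICM for 3 or 6 days (the labels do not spell out ICM), all fixed with formaldehyde alone, and the HMGB2 group was untreated cells treated first with EGS, which crosslinks proteins over a longer reach, and then with formaldehyde. Each group has 1 peak list, so no difference between groups could be tested, and target and fixation cannot be told apart between SON and HMGB2. Each SON list was combined from 2 replicates, whose origin the labels do not give. The lists hold no read counts, so depth is unknown, and peak lists carry no expression by which the labelled cell type could be checked.

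Nuclear speckles are bodies between the chromosomes that store splicing factors, and SON is a large scaffold protein at their core. Gene-rich, highly transcribed chromatin lies near them, whereas gene deserts tend to lie at the nuclear lamina. HMGB2 is a DNA-bending protein without a strict sequence preference, known to be lost from nuclei as cells enter senescence. Deserts are not empty of function: many hold long non-coding RNA (lncRNA) genes and distant enhancers of developmental genes at their edges.

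Promoter windows of 5 lncRNA genes show what lies under some of the members. They are the 3 windows met by desert peaks of all 4 lists (LOC105370783, LOC124903744 and LINC01091), the window under the strongest desert SON peak that meets a promoter (MIR4458HG), and the window at a region found in all 4 lists (LINC01132). Each runs 300 bases on the gene's strand, from 250 bases before the start of the RNA to 50 after, as given by RefSeq for GRCh38.p14. Capitals mark the bases inside the peak of every list that has a peak on the window.
LOC105370783, chr15:39472969-39473268, plus strand: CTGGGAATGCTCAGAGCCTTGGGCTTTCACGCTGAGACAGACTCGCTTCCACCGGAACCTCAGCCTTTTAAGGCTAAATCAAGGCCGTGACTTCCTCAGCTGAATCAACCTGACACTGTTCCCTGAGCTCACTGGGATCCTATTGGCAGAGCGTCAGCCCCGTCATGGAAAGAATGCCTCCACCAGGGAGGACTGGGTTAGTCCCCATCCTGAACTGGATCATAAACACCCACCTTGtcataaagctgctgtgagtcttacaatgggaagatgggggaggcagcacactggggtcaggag
LOC124903744, chr16:86223023-86223322, minus strand: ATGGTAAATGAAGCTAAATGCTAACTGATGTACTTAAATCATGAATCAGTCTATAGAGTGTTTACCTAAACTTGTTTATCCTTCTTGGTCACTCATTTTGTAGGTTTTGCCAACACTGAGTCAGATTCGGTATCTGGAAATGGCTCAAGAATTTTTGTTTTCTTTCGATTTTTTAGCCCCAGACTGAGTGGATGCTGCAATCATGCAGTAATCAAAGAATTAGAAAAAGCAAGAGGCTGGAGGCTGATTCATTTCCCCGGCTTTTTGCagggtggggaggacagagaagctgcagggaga
LINC01091, chr4:123649741-123650040, plus strand: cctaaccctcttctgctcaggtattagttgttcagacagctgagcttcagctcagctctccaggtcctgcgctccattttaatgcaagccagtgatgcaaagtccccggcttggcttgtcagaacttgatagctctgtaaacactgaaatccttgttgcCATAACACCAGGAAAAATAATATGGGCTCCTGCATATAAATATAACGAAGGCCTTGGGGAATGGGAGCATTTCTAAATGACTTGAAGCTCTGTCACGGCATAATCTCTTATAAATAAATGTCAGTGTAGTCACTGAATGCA
MIR4458HG, chr5:8457437-8457736, plus strand: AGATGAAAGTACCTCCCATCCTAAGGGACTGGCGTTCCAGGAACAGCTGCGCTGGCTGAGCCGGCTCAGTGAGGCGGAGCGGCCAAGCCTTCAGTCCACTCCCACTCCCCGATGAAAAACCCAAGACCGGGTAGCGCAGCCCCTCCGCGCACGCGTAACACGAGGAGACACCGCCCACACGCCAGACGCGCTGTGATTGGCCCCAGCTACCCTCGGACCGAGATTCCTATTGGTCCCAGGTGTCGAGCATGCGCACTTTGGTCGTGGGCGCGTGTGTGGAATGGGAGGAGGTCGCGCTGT
LINC01132, chr1:234723792-234724091, plus strand: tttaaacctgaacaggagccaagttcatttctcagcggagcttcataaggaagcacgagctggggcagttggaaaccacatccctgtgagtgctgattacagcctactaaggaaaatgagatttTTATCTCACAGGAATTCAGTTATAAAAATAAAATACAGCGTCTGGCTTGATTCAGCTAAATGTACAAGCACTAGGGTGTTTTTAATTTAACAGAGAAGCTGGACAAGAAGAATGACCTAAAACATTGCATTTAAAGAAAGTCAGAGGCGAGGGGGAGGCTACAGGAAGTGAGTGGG
The windows differ in base composition. MIR4458HG holds 63.3% G and C with 26 CpG pairs, and LOC124903744 holds 40.7% with 3 CpG pairs. Values of the peaks on them follow below with their deserts.

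Desert peaks were a small share of every list, and smallest for HMGB2. They made up 8.67% of SON peaks in untreated cells (95% exact Clopper-Pearson interval 8.30 to 9.05), 6.87% after 3 days (6.41 to 7.36), 8.94% after 6 days (8.20 to 9.73) and 3.42% of HMGB2 peaks (2.98 to 3.91). These intervals cover counting error only. The order of the SON lists depends on the threshold: among peaks with a global irreproducible discovery rate (IDR, the estimated share of peaks of that rank or better that the replicates do not share) of at most 0.05, the shares were 7.14%, 4.92% and 3.41%, and among the 5481 strongest lines of a list 5.15%, 5.33% and 8.94%. The HMGB2 share was the lowest over all lines and at equal length (3.25%), and at the strict thresholds it was 3.36% (q of at most 0.01) beside the 3.41% of SON after 6 days, which rests on 28 peaks.

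The strength of a peak is here the authors' −log10 p, for SON that of the weaker of its replicates, and it is compared only within a list. Desert peaks were weaker than the rest in all 4 lists. In untreated cells the median desert SON peak had a strength of 8.66 against 10.1 for the other peaks. After 3 days the medians were 8.22 and 9.14, and after 6 days 7.88 and 8.57. For HMGB2 they were 8.82 and 9.54, with median fold enrichments of 4.75 and 4.91. The distributions overlapped widely. In untreated cells 38.5% of desert SON peaks lay above their list's median (50% of all peaks by construction), after 3 days 39.1% (49.9% of all), after 6 days 39.4% (50% of all), and for HMGB2 41.5% (49.7% of all).

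**Figure D1:**
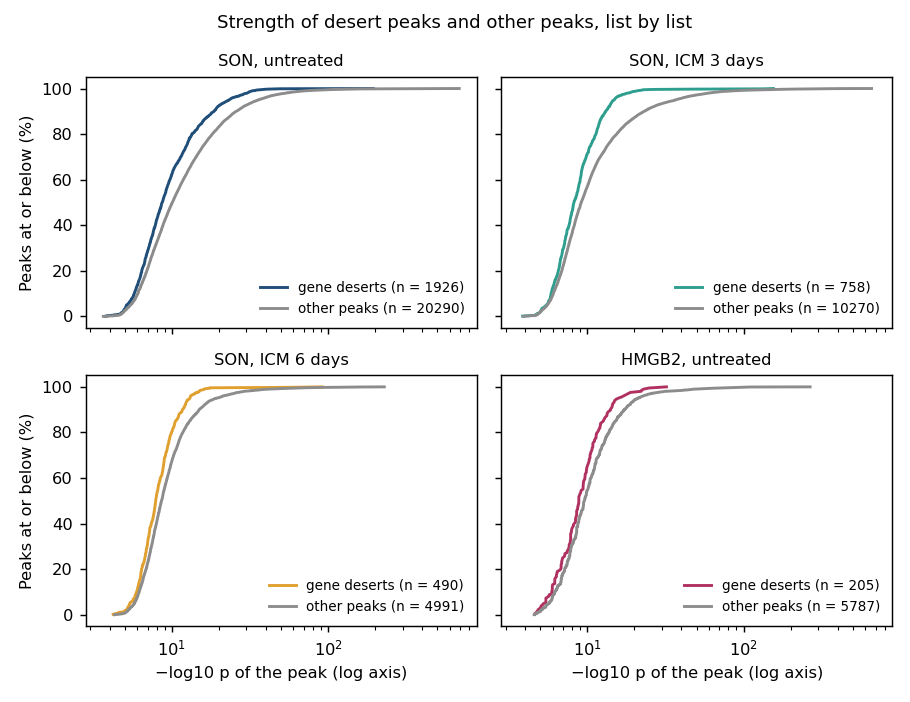
Cumulative share of peaks (vertical axis, percent) at or below each strength (horizontal axis, −log10 p on a log scale) for desert peaks (coloured) and other peaks (grey), 1 panel a list. The coloured curve lies left of the grey one over most of its range in each panel, with medians of 8.66 against 10.1, 8.22 against 9.14, 7.88 against 8.57 and 8.82 against 9.54.

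The desert share was lowest at the top of each list. With each list split by strength into 5 classes of equal size, the desert share of untreated SON peaks went from 11.6% in the weakest class to 4.84% in the strongest. After 3 days it stayed between 7.34% and 8.98% in 4 classes and was 1.77% in the strongest (1.26 to 2.41). After 6 days it went from 11.9% to 5.02%. For HMGB2 it went from 4.34% to 1.84%, with the intervals of neighbouring classes overlapping. Among the 500 strongest peaks, 3 untreated SON peaks, 3 SON peaks after 3 days, 9 SON peaks after 6 days and 7 HMGB2 peaks lay in deserts.

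**Figure D2:**
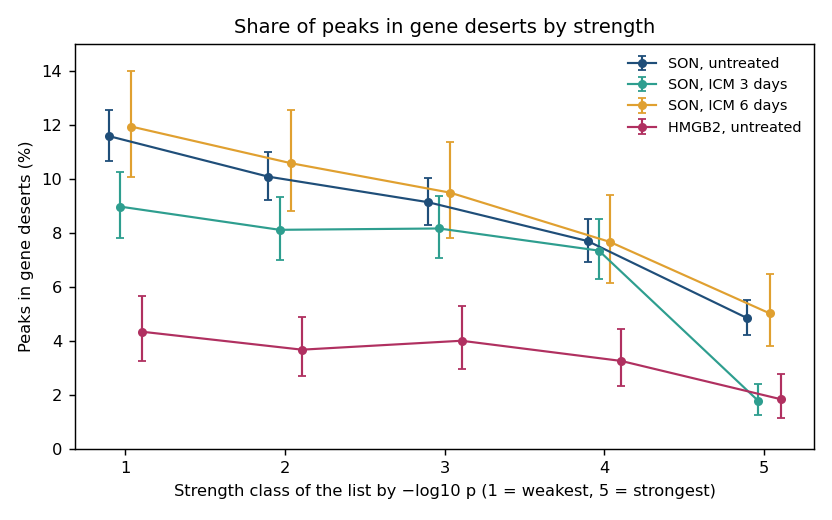
Share of peaks in gene deserts (percent) in each of 5 equal classes of a list by −log10 p, from weakest (1) to strongest (5); points are shares, bars are 95% exact binomial intervals, and colours are the 4 lists. The strongest class has the lowest share in all 4 lists, from 1.77% for SON after 3 days to 5.02% for SON after 6 days.

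Desert SON peaks passed the replicate criterion less often. The IDR follows the rank of a peak, so this is not independent of their lower strength. No comparison at equal strength was made. A global IDR of at most 0.05 was reached by 49.1% of desert peaks in untreated cells against 60.7% of the others (59.7% of all). After 3 days it was reached by 29.7% against 42.3% (41.4% of all), and after 6 days by 5.71% against 15.9% (15% of all). The intervals of desert and other peaks do not overlap in any of these pairs. At the other end, 40.5%, 43.7% and 51.8% of desert peaks stood at the highest IDR of their list, which was 0.431, 0.447 and 0.630, against 31.9%, 31.4% and 38.4% of other peaks. Many lines carry exactly the same −log10 p for both replicates: 43.0% of desert peaks in untreated cells, 39.4% after 3 days and 13.5% after 6 days, against 57.3%, 28.1% and 9.08% of other peaks. Across desert peaks, the rank correlation of the replicates' values (Spearman, a description over peaks of 1 list) was 0.84 in untreated cells, 0.78 after 3 days and 0.47 after 6 days. Across other peaks it was 0.91, 0.78 and 0.57 in the same order. Desert peaks were narrower as well, with median widths of 380.5 bp against 416 in untreated cells, 397 against 452 after 3 days, 412.5 against 424 after 6 days and 231 against 242 for HMGB2.

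A few desert peaks were among the strongest of their lists. The strongest in untreated cells, chr13:44141755-44142569, lies 248 kb from LACC1, a gene of macrophage metabolism, and 231 kb from SERP2, a stress-associated protein of the endoplasmic reticulum, inside the lncRNA genes LINC00390 and SMIM2-AS1. Its strength was 194 in untreated cells (253 and 194 in the replicates), 136 after 3 days (136 in both), 54.9 after 6 days (103 and 54.9) and 17.2 for HMGB2. It was thus present in every list, at percentiles of strength of 99.8, 99.4 and 99.0 in the SON lists and 89.8 in the HMGB2 list. The second region, chr21:8987959-8988744 on the short arm of chromosome 21, overlaps no gene of the table and lies 371 kb from the nearest coding gene, LOC101927345. Its strength was 104 in untreated cells, 155 after 3 days and 91.6 after 6 days, and no HMGB2 peak met it. Close by, at chr21:8986966-8987454, an untreated SON peak lay on the microRNA gene MIR3648-2, which has a copy elsewhere on that chromosome. Whether repeated sequence adds to these values was not tested. At the third, chr5:8457132-8457798, the peak covers the start sites of MIR4458HG, a microRNA host gene, and LINC02226, which run in opposite directions 556 kb from MTRR, an enzyme of methionine synthesis. Its strength was 49.6 in untreated cells, 47.3 after 3 days and 14.1 after 6 days, with unequal replicates after 3 days (47.3 and 182), and no HMGB2 peak met it.

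The next strongest desert SON peaks were spread over other deserts. A peak at chr10:4344453-4344977, between the zinc-finger factor gene KLF6 and AKR1E2, had strengths of 48.5 in untreated cells, 21.8 after 3 days and 13.1 after 6 days. At chr3:154886298-154886891, 137 kb from MME, which encodes the membrane protease neprilysin, the strengths were 44.6, 11.16 and 10.95. The peak at the pseudogene FAM86EP, chr4:3954450-3955005, had 28.7, 26.4 and 8.20, and 12.1 for HMGB2. These regions had a peak in all 3 SON lists. Strengths of 1 region in different lists stand side by side with no test, since depth is unknown and each group has 1 list. A region at chr10:30736748-30737398, between LYZL2 and ZNF438, had 35.7, 22.7 and 12.3, and 6.23 for HMGB2.

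After 6 days, 3 of the 5 strongest desert peaks were not among the 5 strongest of the other SON lists. The peak at chr1:81179244-81179643, 126 kb from the adhesion receptor gene ADGRL2, had 17.4 after 6 days, 15.2 after 3 days and 19.1 in untreated cells. The peak at chr2:217065988-217066556, 206 kb from TNP1, which encodes a protein of sperm chromatin, had 17.4, 13.1 and 30.5 in the same order. The peak at chr13:80040538-80041122, 295 kb from SPRY2, an inhibitor of growth factor signalling, had 16.3, 10.2 and 18.6. All 3 regions had a peak in each SON list, and none met an HMGB2 peak.

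The strongest HMGB2 desert peaks were other regions. The first, chr2:217434107-217434485 inside the lncRNA gene DIRC3, 365 kb from TNS1, which encodes the focal adhesion protein tensin, had a strength of 32.1 and a fold enrichment of 10.1. A SON peak met it in untreated cells (15.6) and none met it after 3 or 6 days. The second, chr15:39472832-39473239, covers most of the LOC105370783 window printed above, with 24.9 for HMGB2 and 28.2, 9.97 and 7.03 in the SON lists. The third, chr2:237212585-237213297, 111 kb from COL6A3, which encodes a collagen VI chain, had 22.97 and the highest fold of any HMGB2 desert peak, 10.9, and no SON list had a peak there. A peak 122 kb from MRPL14 and 204 kb from VEGFA, the vascular growth factor gene, chr6:43990864-43991257, had 22.2, with SON peaks of 10.8, 7.18 and 5.22. The fifth, chr16:86294579-86294852 between IRF8 and FOXF1, had 22.1, with SON peaks of 19.04 in untreated cells and 10.2 after 3 days and none after 6 days. So 2 of these 5 regions had a peak in all 4 lists.

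Over the 4 lists, 39 of the 2161 distinct desert regions had a desert peak in every list. All 3 SON lists had one in 306, and a single list had one in 1334. The same counts were not made for peaks outside deserts, so nothing particular to deserts is read from them. Of the regions in every list, the 5 with the highest mean rank of strength were LACC1 to SERP2, FAM86EP and 3 more. The region chr7:106424954-106425319, 139 kb from NAMPT, an enzyme of NAD synthesis, had strengths of 31.8, 15.9 and 16.0 for SON and 11.2 for HMGB2. The region chr12:75690627-75690866, inside LOC105369844 between KRR1 and PHLDA1, had 30.05, 13.01 and 9.70, and 14.1 for HMGB2. The region chr1:234724101-234724545 at the start of LINC01132, 114 kb from IRF2BP2, a transcriptional corepressor gene, had 36.1, 19.1 and 7.82, and 17.7 for HMGB2. Each of these 3 regions had a peak in every list.

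The lists after ICM were shorter, and most of their desert peaks met a peak of untreated cells. Of desert SON peaks in untreated cells, 34.1% overlapped a peak after 3 days by at least 1 bp (45.4% of all untreated peaks), and 20.1% overlapped one after 6 days (21.9% of all). In the other direction, 86.4% of desert peaks after 3 days met an untreated peak (91.6% of all), and so did 79.2% of those after 6 days (88.9% of all). Of desert peaks after 6 days, 69.8% met a peak after 3 days (80.9% of all). With strength not held equal, desert peaks were thus shared less often than the whole list in these 5 directions. From untreated cells to 6 days, though, the interval of the desert share, 18.4 to 22.0, holds the value of the whole list. The exception was the step from 3 to 6 days, where 45.1% of desert peaks (41.5 to 48.7) met a peak after 6 days against 40.1% of all.

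That exception depends on the threshold. Within the 5 classes of strength, the desert peaks after 3 days were met after 6 days in 23.2%, 33.5%, 48.3%, 71.6% and 84.6% of cases from weakest to strongest, against 17.7%, 22.5%, 32.6%, 44.4% and 78.6% of other peaks. With each list at its 5481 strongest lines the shares were 69.2% of desert peaks and 57.9% of all. Where the global IDR was 0.05 or less, the direction turned, with 10.2% of 225 desert peaks met after 6 days against 16.3% of all. From untreated cells to 6 days, the desert peaks of the 5 classes were met in 6.02%, 9.82%, 18.97%, 27.2% and 66.5% of cases from weakest to strongest, against 5.68%, 7.73%, 12.14%, 22.6% and 59.7% of other peaks. At equal length it was 59.9% against 54.7% of all. Both are the opposite direction to that over all lines, while at an IDR of at most 0.05 it was 2.64% of desert peaks against 5.90% of all. From untreated cells to 3 days, the desert peaks of the 5 classes were met in 12.6%, 21.4%, 31.0%, 51.8% and 89.8% of cases. Other peaks were met in 14.6%, 22.0%, 37.0%, 62.9% and 92.5%, again from weakest to strongest. The intervals of desert and other peaks overlapped in all classes except class 4. The part of strength in the lower share over all lines was not tested.

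Followed through the series, 307 desert SON peaks of untreated cells (15.9%) were met at both times, 350 (18.2%) after 3 days but not 6, 81 (4.21%) after 6 days but not 3, and 1188 (61.7%, 59.5 to 63.9) at neither. Of the other untreated peaks, 19.4% were met at both times and 27.1% after 3 days but not 6. A further 2.66% were met after 6 days but not 3, and 50.8% at neither time. These shares were not compared at equal strength. The desert peaks met at both times had a median strength of 16.3 in untreated cells, and those met at neither had 7.63. In reverse, 103 desert peaks after 3 days (13.6%) and 102 after 6 days (20.8%) met no untreated peak. Their median strengths were 6.72 and 7.16 and their highest values 13.1 and 11.6. Of them, 8 and 0 had a global IDR of at most 0.05. The same values were not computed for peaks outside deserts, so nothing particular to deserts is read from them.

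HMGB2 and SON met less often in deserts when counted from SON. An HMGB2 peak overlapped 6.54% of desert SON peaks in untreated cells (16.5% of all), 9.76% after 3 days (23.6% of all) and 9.39% after 6 days (25.4% of all). Counted from HMGB2, 62.9% of desert peaks met an untreated SON peak (62.3% of all), 37.1% met one after 3 days (44.1% of all) and 22.9% after 6 days (23.5% of all). The 62.9% has an interval of 55.9 to 69.6. At the stricter thresholds (IDR of at most 0.05 for SON, q of at most 0.01 for HMGB2) the share from HMGB2 to untreated SON was 40.1% of desert peaks against 48.6% of all, and at equal length 21.3% against 31.1%. Of the 205 HMGB2 desert peaks, 70 (34.1%) met no SON list and 40 (19.5%) met all 3. The matching shares of all HMGB2 peaks were not computed, so these counts describe the members only.

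**Figure D3:**
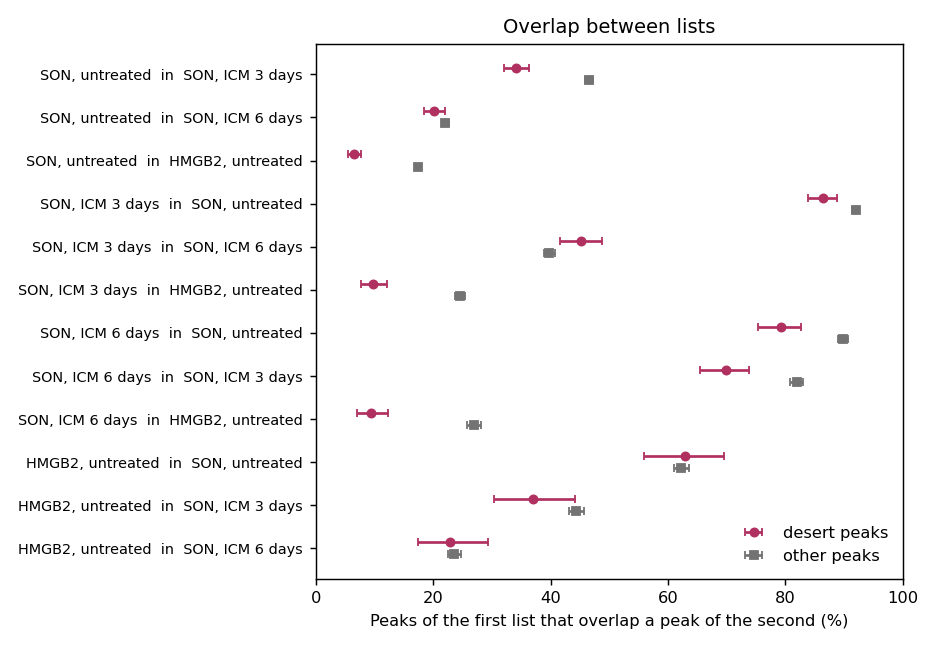
Share of the peaks of the first list (percent) that overlap a peak of the second by at least 1 bp, for desert peaks (red circles) and other peaks (grey squares), with 95% exact binomial intervals. Desert peaks lie left of other peaks in each pair of lists except SON 3 days in SON 6 days, where they lie right, and HMGB2 in SON untreated, where 62.9% and 62.3% nearly coincide.

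Many members lay within 200 kb of a coding gene and few beyond 1 Mb. How the desert territory itself divides by distance was not computed. The distance to the nearest coding gene had a median of 214 kb for untreated SON, 213 kb after 3 days, 227 kb after 6 days and 186 kb for HMGB2. Between 100 and 200 kb lay 45.7%, 45.0%, 42.2% and 55.6% of the members, in the same order. Beyond 1 Mb lay 46, 20, 12 and 1 peaks. Strength hardly varied with distance inside deserts, with Spearman correlations across peaks of -0.015, -0.067, -0.086 and -0.0024. The farthest member in untreated cells and after 3 days was at chr22:11974070-11974451, with strengths of 18.6 and 7.17 and no peak in the other lists. After 6 days it was chr4:130395886-130396249, 1279 kb from C4orf33 and with a strength of 4.30. For HMGB2 it was chr13:82655235-82655471, 1222 kb from the neuronal receptor gene SLITRK1, with 7.65.

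The lines nearest the 100 kb limit on either side show what the rule separates. Just inside it, untreated SON had peaks at 100.11 kb from GJA1, the connexin 43 gene (strength 8.07), and at 100.13 kb from KIF2B (4.93). Just outside it had peaks at 99.98 kb from ITPRID2 (19.7) and 99.99 kb from SSBP2 (13.8). After 3 days the peaks inside were at 100.05 kb from PLEKHG7 (7.23) and 100.44 kb from SMAD6, an inhibitor of BMP signalling (15.4), and those outside at 99.99 kb from SSBP2 (7.24) and 99.83 kb from CEBPB (6.69). After 6 days the peaks inside were at 100.05 kb from IGF1R, a growth factor receptor gene (6.32), and 100.13 kb from BET1 (8.19), and those outside at 99.54 kb from TMTC3 (12.6) and 99.51 kb from LOC124900752 (10.1). For HMGB2 the peaks inside were at 100.23 kb from IGF1R (4.81) and 102.08 kb from PPP2R2A (9.69), and those outside at 99.89 kb from USP12 (8.48) and 99.29 kb from PGRMC2 (10.4).

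Measured over territory, deserts were sparse in peaks. The space between coding genes holds 1650 stretches more than 100 kb from each of them, 949 Mb of the 3024 Mb that the genes span (31.4%), with assembly gaps and centromeres not taken out. Untreated SON had 2.03 peaks per Mb there against 9.77 per Mb elsewhere. After 3 days the densities were 0.798 and 4.95, after 6 days 0.516 and 2.40, and for HMGB2 0.216 and 2.79. The ratio of desert to other density was 0.207, 0.161 and 0.215 for SON and 0.0775 for HMGB2, the lowest of the 4. Without 369 coding genes of unsure place the deserts came to 878 Mb and the ratios to 0.227, 0.177 and 0.235 for SON and 0.0847 for HMGB2. Of the 1650 stretches, 603, 390, 284 and 124 held a peak in the respective lists, 628 held one in any list, 88 held one in each list and 1022 held none.

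Some members stood close together. With neighbours up to 100 kb apart joined, the 1926 untreated SON peaks formed 947 groups, and 50.8% of them stood in groups of 3 or more. After 3 days this share was 21.0%, after 6 days 9.80% and for HMGB2 17.6%, and a shorter list has fewer neighbours to join. The same joining was not made for peaks outside deserts, so nothing particular to deserts is read from these shares. The fullest untreated groups were 15 peaks between TNP1 and TNS1 (strength up to 37.2), 14 between RASGRP1 and LOC124903470 (up to 28.2) and 14 between IRF8 and FOXF1 (up to 22.5). After 3 days they were 8 peaks between IRF8 and FOXF1, 7 between TNP1 and TNS1, and 6 between KRR1 and PHLDA1. After 6 days they were 5 peaks between FN1, the fibronectin gene, and MREG, 4 between CD83 and JARID2, and 13 groups of 3. For HMGB2 they were 7 between IRF8 and FOXF1 and 5 each between CEBPB and PTPN1, KRR1 and PHLDA1, and IRF2BP2 and TOMM20. Peaks of 1 group share their surroundings and are not independent observations.

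Of the deserts with many members, 4 were drawn, chosen after their values were seen. The stretch between CITED2, which encodes a co-regulator of CBP and p300, and LOC124901415 on chromosome 6 is 2.11 Mb long and held 26 SON peaks in untreated cells, 10 after 3 days, 11 after 6 days and 2 HMGB2 peaks. The stretch between TNP1 and TNS1 on chromosome 2, 0.740 Mb long, held 19, 11, 5 and 3. The stretch between RASGRP1 and LOC124903470 on chromosome 15, 0.815 Mb long, held 18, 7, 5 and 4. The stretch between IRF8 and FOXF1 on chromosome 16 is the shortest, 0.388 Mb, and held 14, 8, 4 and 7. It is known as the distant regulatory region of FOXF1, a transcription factor of lung mesenchyme, and contains the lncRNA genes LINC01081 and LINC01082. HMGB2 had more members there than in the other 3 stretches. Further members lay between TNC, the tenascin C gene, and PAPPA, with 15, 7, 5 and 4, and between CD109 and COL12A1, a collagen gene, with 13, 7, 7 and 3.

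**Figure D4:**
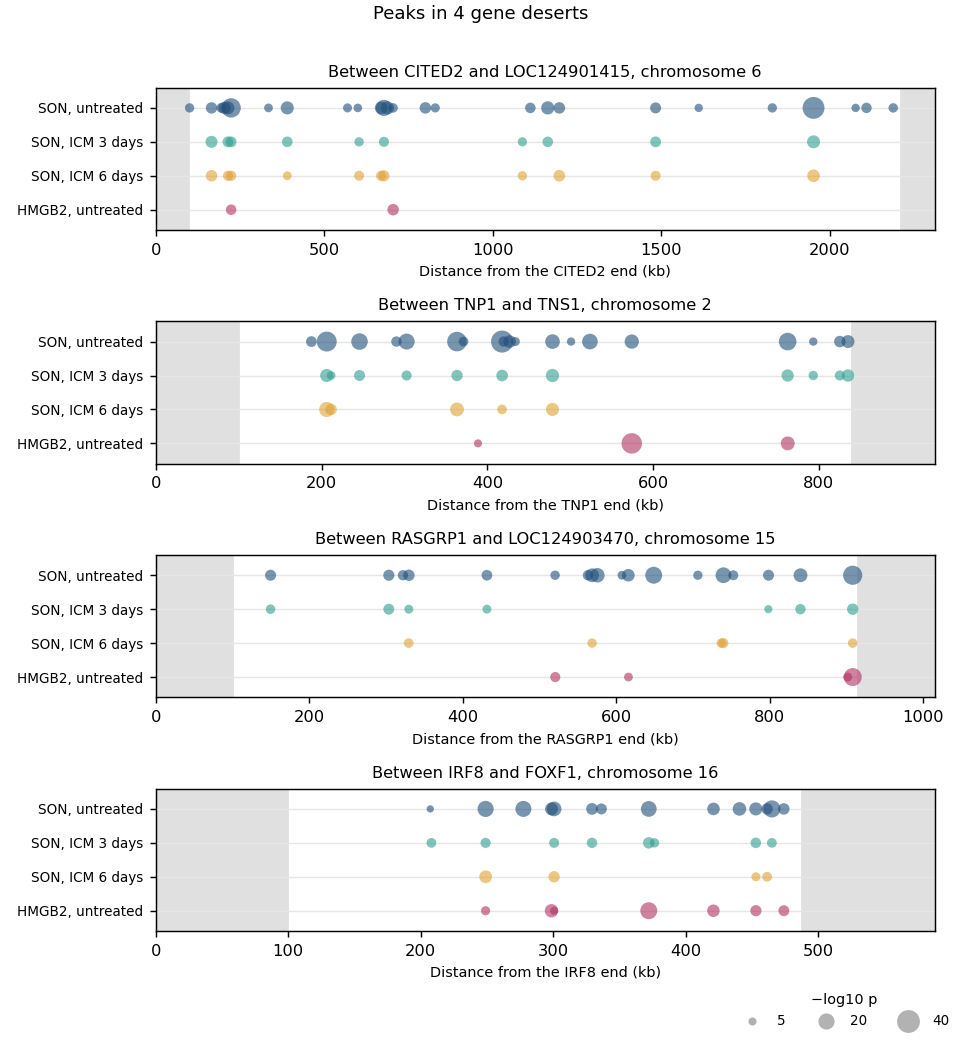
Positions of the peaks of the 4 lists (rows) in 4 gene deserts, as distance in kb from the coding gene on the left; the area of a dot grows with its −log10 p, and grey bands mark the space within 100 kb of a coding gene. Dots of several lists stand above each other at many positions, and the row of untreated SON is the fullest in each panel.

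Non-coding genes lay under many members. A gene that is not protein coding was overlapped by 40.8% of desert SON peaks in untreated cells (22.2% of all peaks), 41.2% after 3 days (23.1% of all), 40.2% after 6 days (22.9% of all) and 49.8% of desert HMGB2 peaks (21.9% of all). The rule chose peaks away from coding genes and so left a different ground for annotation, and these shares are a description. Nearly all were lncRNA genes, under 38.8%, 38.9%, 39.0% and 45.9% of the members. In all, 586 non-coding genes were met, 545 of them lncRNA genes, and 44 were met by desert peaks of all 4 lists.

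Several lncRNA genes that held many members are long. LOC105370777 on chromosome 15 (556 kb) held 16 SON desert peaks in untreated cells, 5 after 3 days, 4 after 6 days and 2 HMGB2 peaks. LOC105369844 on chromosome 12 (311 kb) held 8, 5, 3 and 4. LINC00607 on chromosome 2 (232 kb), next to FN1, held 9, 5, 4 and 1. Further examples were DIRC3 with 10, 5, 1 and 2, CASC15 with 10, 2, 2 and 3, LOC101928516 with 8, 4, 3 and 2, CFAP20DC-DT with 5, 4, 3 and 3, LOC105370504 with 8, 3, 3 and 1, and LOC102724861, which overlaps LINC00607, with 7, 3, 2 and 1. These 9 genes were taken from those met in all 4 lists. MIR3681HG on chromosome 2 (571 kb), which is not among those, held 9, 3, 2 and 0.

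Of 22 RNA genes listed for their known roles in fibroblasts, senescence or as microRNA hosts, 6 held a desert peak and 16 held none, beside 586 of 39124 non-coding genes of the table (1.50%). The listed genes were chosen with earlier results of these data known, and long genes have more room for a peak, so nothing is read from that difference. Of the 16, CYTOR and PURPL lie 107 kb and 434 kb from the nearest coding gene, and the others lie within 100 kb of one. CASC15, a lncRNA of cancer susceptibility, held a SON peak with a strength of 38.3 in untreated cells, and its highest values were 19.5 after 3 days, 10.2 after 6 days and 9.40 for HMGB2. MIR100HG, the host of miR-100 and let-7a-2, held 4, 2, 2 and 2 desert peaks, up to 19.2, 12.04, 9.10 and 7.57. LINC-PINT, a lncRNA regulated by p53, held 6, 1, 1 and 0, up to 23.4, 10.3 and 9.31. MIR222HG and JPX had a SON desert peak in untreated cells alone (8.19 and 12.4), and LINC01705 had one in untreated cells (15.1) and after 3 days (11.1). Of these 6 genes, CASC15 and MIR100HG had desert peaks in all 4 lists. Desert peaks met 2 microRNA genes. MIR3648-2 on chromosome 21, which has a copy elsewhere on that chromosome, lay under a SON peak in untreated cells (12.4) and another after 3 days (16.7). MIR4289 on chromosome 9, between NXNL2 and S1PR3, lay under a SON peak in untreated cells (11.7) and an HMGB2 peak (8.15). The mature RNA of MIR4289 in RefSeq is given here, with the seed, bases 2 to 8, in capitals.
hsa-miR-4289: gCAUUGUGcagggcuauca

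Few members lay on promoters. Over the 22 chromosomes whose promoter windows were used here, a window was met by 46 of 1786 desert SON peaks in untreated cells (2.58%, against 29.4% of all peaks), 21 of 709 after 3 days (2.96%, 40.5% of all), 12 of 464 after 6 days (2.59%, 32.3% of all) and 10 of 195 HMGB2 peaks (5.13%, 36.2% of all). The rule removed the promoters of coding genes, so the difference is in part set by it. The members met 58 windows of 55 genes, 1.995% of the 2907 windows that lie in deserts. At LOC124903744 the strengths were 16.6, 7.69 and 9.85 for SON and 5.24 for HMGB2, and at LINC01091 they were 9.03, 10.8 and 6.38 for SON and 8.57 for HMGB2.

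The 58 windows were searched for 2 motifs on both strands. The AP-1 site, bound by FOS and JUN proteins, was written as TGANTCA, which reads the same on either strand, and the core of the CTCF site as CCA, AG and GGC with 2 bases of any kind between each and the next. The AP-1 letters were in 17 of the 58 windows (29.3%, 18.1 to 42.7), in 12.9% of the 2849 desert windows without a member, and in 7.69% of all 34789 windows. The CTCF letters were in 2 of the 58 (3.45%), in 1.30% of desert windows without a member and in 2.42% of all. These 2 windows, of LINC00472 and LINC01626, overlap and hold the same site on opposite strands. Some windows overlap each other, and several share a peak. Those of LINC-PINT and LINC00513 share their AP-1 letters, so the windows are not independent as the interval takes them to be. The median G and C content was 47.5% in windows with a member, 42.7% in desert windows without one and 58.7% in all, and its part in the motif shares was not tested. In the sequences printed above, counted from the 5′ end of each window, the AP-1 letters start at base 101 in LOC105370783 (TGAATCA), at bases 42, 117 and 245 in LOC124903744 and at base 172 in LINC01132 (TGATTCA). They are in neither LINC01091 nor MIR4458HG.

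The desert share of the peaks varied between chromosomes. In untreated cells it was highest on chromosome 8 (14.5%), 13 (14.1%), 4 (13.7%) and 21 (13.7%), and it was 0.287% on the gene-dense chromosome 19, on 3 peaks. No other list had a desert peak on chromosome 19. After 3 days it was highest on chromosome 18 (12.02%) and 13 (11.95%). After 6 days the highest shares were on chromosome 18 (17.2%) and 6 (16.9%). For HMGB2 they were on chromosome 13 (6.93%) and 4 (6.67%). By number, chromosomes 2 and 6 led every list, with 217 and 179 peaks for untreated SON, 92 and 70 after 3 days, 55 and 59 after 6 days, and 23 each for HMGB2. Per Mb of desert, untreated SON was densest on chromosome 12 (3.54 peaks) and 6 (3.52) and sparsest on chromosome 19 (0.474). Without the 369 coding genes whose place in the table is unsure, chromosome 6 had 3.58, chromosome 12 had 3.57 and chromosome 19 again 0.474. Chromosome 15 changed most, from 1.42 to 3.18. Chromosome 22, where such genes bound a long stretch, went from 0.497 to 1.78 and chromosome 14 from 1.002 to 1.72.

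**Figure D5:**
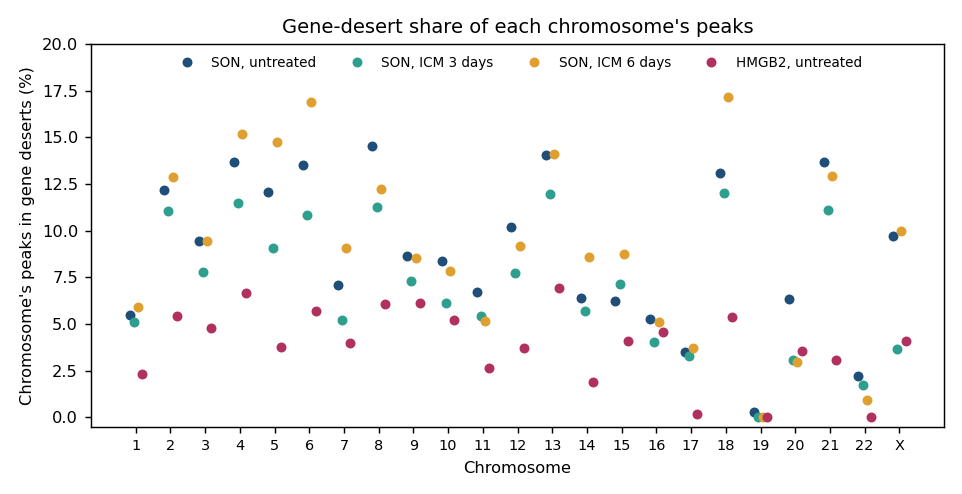
Share of each chromosome's peaks that lie in gene deserts (percent, vertical axis) for chromosomes 1 to 22 and X, 1 point a list. The points of HMGB2 lie lowest on most chromosomes, and chromosome 19 is at or near 0 in all lists, with 0.287% for untreated SON.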

How the data were processed

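ChIPmentation peak lists of IMR90 cells were used, 1 each for SON in untreated cells, SON at 3 days and at 6 days of ICM, and HMGB2 without treatment. The 2 remaining samples of the series were not analysed here. Each SON list joins 2 replicates by the authors' IDR step, per the file headers and columns, with a deposited −log10 p for each peak. The deposited HMGB2 list holds the authors' fold enrichment, −log10 p and −log10 q, with a q limit of 0.03 in its peak names. The score column that the authors deposited in each list was not used. The submitters' processing notes name hg38, bcl2fastq 2.17, Bowtie2, MACS2 and deepTools. Calling settings, control and depth are not given in the sources used here.

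Distances to RefSeq genes (GRCh38.p14) and overlaps were computed with Python 3.11.15, numpy 2.4.6, pandas 2.3.3 and scipy 1.17.1 and tested on simulated peaks. Figures used matplotlib 3.10.9. No genome was used. Some coding genes of the table stand at positions that seem to belong to another sequence, and an alternative without 369 such genes was run. Promoter windows of chromosome 8 were not used here, and promoter shares leave it out. Its regions are counted, and are not singled out among the fullest deserts and lncRNA genes.

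Groups came from titles and treatment labels. With 1 list a group no test was made. Shares carry 95% exact binomial intervals, which treat peaks as independent. Regions were named by rule: the 5 strongest members and the farthest in each list, the 2 lines on either side of the limit, the 5 strongest in all 4 lists, the 3 fullest groups and the non-coding genes met in most lists. The members, gene lists and motifs were chosen with earlier results of these data known. Alternatives changed the distance, threshold, overlap, merging, strength column, width classes and gene set.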

Additional observations from a re-analysis of the deposited data

How the results depend on the processing

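Of 131 recomputed values for 24 results, 77 moved by less than their interval and 54 moved by more. Values are given for untreated SON, SON after 3 days, SON after 6 days and HMGB2, in that order. The desert share was 13.5%, 11.02%, 13.3% and 5.86% at more than 50 kb, 4.70%, 3.78%, 5.16% and 1.52% at more than 200 kb, and 1.28%, 0.961%, 1.44% and 0.284% at more than 500 kb. Counted from every gene of the table, coding or not, it was 0.531%, 0.499%, 0.657% and 0.117%. In the stronger 50% of each list it was 6.69%, 5.37%, 7.04% and 2.84%. At an IDR of at most 0.05 it was 7.14%, 4.92% and 3.41% for SON. At the length of the shortest list it was 5.15% for untreated SON and 5.33% after 3 days, and with peaks within 10 kb merged it was 9.05% for untreated SON. The share of desert peaks above the list's median was 42.5% for untreated SON and 43.5% after 3 days within 5 width classes. Within 5 kb of a non-coding gene lay 50.5%, 51.2%, 48.4% and 61.0% of members.

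Overlaps depended most on the threshold. At the strict thresholds untreated SON was met after 3 days in 19.3%, after 6 days in 2.64% and by HMGB2 in 8.14% of desert peaks. Over all peaks these shares were 31.4%, 5.90% and 21.1%. SON after 3 days was met in untreated cells in 81.3%, after 6 days in 10.2% and by HMGB2 in 14.7% (91.0%, 16.3% and 34.4% of all). SON after 6 days was met in untreated cells in 89.3% and after 3 days in 82.1%, on 28 peaks (95.1% and 90.6% of all). HMGB2 was met by SON in 40.1%, 17.3% and 1.02% (48.6%, 27.4% and 5.96% of all). At equal length the shares from untreated SON were 60.3%, 59.9% and 12.8% (68.5%, 54.7% and 30.5% of all). Those from SON after 3 days were 58.2%, 69.2% and 14.04% (68.6%, 57.9% and 30.8% of all). Those from SON after 6 days to untreated SON and SON after 3 days were 34.7% and 41.2% (54.9% and 58.1% of all). From HMGB2 to untreated SON and SON after 3 days they were 21.3% and 24.2% (31.1% and 31.4% of all). At more than 200 kb untreated SON was met by HMGB2 in 5.17% (16.5% of all). Fewer lines enter at these settings by construction.

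The alternatives that counted immune receptor loci as coding and that left out 369 coding genes of unsure place were chosen after seeing the data, and moved no share outside its interval. The 369 genes moved densities per Mb more, as the report gives. No paired analysis was possible because each group has 1 list and the result comes from no test. Leaving out a replicate was not run, since the SON lists hold peaks of both replicates combined. Depth is unknown, so a peak missing from a list was not detected there, which does not show that it is absent.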

Other observations

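Other kinds of gene were counted under desert peaks only, so nothing particular to deserts is read from these counts. Among desert SON peaks in untreated cells, 22 met a transcribed pseudogene and 11 met another pseudogene. Of tRNA genes, 3 untreated SON peaks, 1 SON peak after 3 days, 1 after 6 days and 1 HMGB2 peak met one. No desert peak of any of the 4 lists met a gene listed as snoRNA or rRNA. Ribosomal sequence outside such listed genes was not searched for. Immune receptor loci, which RefSeq does not class as protein coding, held 10, 4 and 2 SON desert peaks and 2 HMGB2 desert peaks. They were at IGL, which encodes immunoglobulin light chains, and at the T cell receptor loci TRA and TRB. Members more than 100 kb from every gene of the table, coding or not, numbered 118 for untreated SON, 55 after 3 days, 36 after 6 days and 7 for HMGB2.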
